A study of Homo sapiens with 12 samples.

Results

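Protease-activated receptors are G protein-coupled receptors, and together with tissue factor and the proteins that restrain it they link blood clotting to cell signalling. The set described here held 8 genes: the receptors F2R, F2RL1, F2RL2 and F2RL3, the clotting initiator F3, its inhibitors TFPI and TFPI2, and the thrombin cofactor THBD. A gene was taken where a feature of the array table carried its symbol and no other, and 7 of the 8 had exactly 1 such feature, out of 18417 genes with one. F2RL1 had no feature under its own single symbol and was not analysed here. The set was built around F2RL2, chosen by its measured log2 signal, which was lower in siLAPTM4B than in siControl cells with 10% FBS, and the other members came in as relatives in the same pathway. The F2RL2 values that rest on arrays with serum are therefore given as a description without a test, and its test used only the arrays without serum.

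The arrays profiled Calu-6, an established human lung cancer cell line, to ask how loss of LAPTM4B, a lysosomal membrane protein, alters gene expression with and without serum. siLAPTM4B cells had received a pool of siRNAs against LAPTM4B and siControl cells a scrambled siRNA, both with Lipofectamine RNAiMAX. After 1 day the medium was changed to one with 0% or with 10% FBS, and RNA was taken 48 h later, 72 h after transfection. The 4 groups were siLAPTM4B 0% FBS, siControl 0% FBS, siLAPTM4B 10% FBS and siControl 10% FBS, with 3 arrays each, labelled as biological replicates. All are transfections of a single cell line, with a single siRNA pool against LAPTM4B or a scrambled control. The p-values measure the spread among these transfections.

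When a protease cuts the outer end of a protease-activated receptor, the new end folds back and activates the same molecule. Thrombin cuts F2R (PAR1), F2RL2 (PAR3) and F2RL3 (PAR4), while trypsin-like enzymes and the tissue factor complex cut F2RL1 (PAR2). In mouse platelets PAR3 serves mainly as a cofactor that helps thrombin cut PAR4. Tissue factor, encoded by F3, binds factor VII and starts clotting at the cell surface; many carcinoma lines carry it. TFPI blocks that complex, TFPI2 is a related inhibitor of plasmin and other serine proteases in the matrix, and thrombomodulin, encoded by THBD, turns thrombin towards activating protein C.

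The stretches just upstream of F2RL2, F3 and TFPI are shown because the signals of these 3 members were lower in siControl cells without serum, as described further on. Each runs over the 250 bases before the RefSeq gene start on build GRCh38.p14, written 5′ to 3′ along the gene, all 3 on the minus strand, with matches to the AP-1 letters TGANTCA in capitals. F2RL2 lies at chr5:76623404-76623653, F3 at chr1:94541760-94542009 and TFPI at chr2:187554436-187554685.
F2RL2: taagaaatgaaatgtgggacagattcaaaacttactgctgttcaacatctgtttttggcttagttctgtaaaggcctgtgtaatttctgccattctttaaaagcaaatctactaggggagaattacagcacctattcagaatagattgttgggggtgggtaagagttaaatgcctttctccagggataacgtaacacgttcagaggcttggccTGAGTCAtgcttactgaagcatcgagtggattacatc
F3: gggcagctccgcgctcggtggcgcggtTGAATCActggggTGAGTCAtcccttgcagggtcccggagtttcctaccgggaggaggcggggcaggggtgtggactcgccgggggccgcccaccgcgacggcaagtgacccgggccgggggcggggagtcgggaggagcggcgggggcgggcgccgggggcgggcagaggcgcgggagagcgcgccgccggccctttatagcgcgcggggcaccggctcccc
TFPI: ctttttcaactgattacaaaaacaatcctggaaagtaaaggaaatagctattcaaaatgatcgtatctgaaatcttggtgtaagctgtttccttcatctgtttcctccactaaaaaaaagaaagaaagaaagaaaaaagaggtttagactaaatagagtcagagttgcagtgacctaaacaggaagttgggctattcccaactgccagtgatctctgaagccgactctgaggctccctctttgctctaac

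The F2RL2 window held the AP-1 letters once, as TGAGTCA, 37 to 31 bases before the start. The F3 window held them as TGAATCA 223 to 217 bases before the start and as TGAGTCA 210 to 204 bases before it. TFPI held none in this window. Of the 6 members with a RefSeq window, 3 held the letters, the third being TFPI2 with TGAATCA 87 to 81 bases before its start, against 6.57% of 35116 windows of the same length, both strands searched. Only the first window listed was searched for each member, whereas the 35116 hold several windows for some genes. The shares of members and of windows are therefore not like for like. F2R and THBD had no entry in the RefSeq table used.

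The other letters searched on both strands were GGGCGG (SP1), GCGNGGGCG (EGR1), TATAAA, TGACNNNGC (core of the antioxidant response element) and GTAAACA (FOXO). F3 held GGGCGG 4 times, GCGNGGGCG 1 time and TATAAA 1 time on the opposite strand, and its GCGNGGGCG match overlapped one of the GGGCGG matches. TFPI2 held GGGCGG 2 times and GCGNGGGCG 1 time, again with an overlap, and F2RL1 held GGGCGG 2 times. F2RL2, F2RL3 and TFPI held none of these 5. Of all windows, 42.6% held GGGCGG, 8.41% GCGNGGGCG, 10.7% TATAAA, 10.9% TGACNNNGC and 2.98% GTAAACA. These are matches of letters only.

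Across the series, the targeted transcript LAPTM4B was lower in siLAPTM4B than in siControl cells by a log2 fold change of -1.42 (SE 0.046) without serum and of -1.75 (SE 0.044) with 10% FBS, with no overlap between groups, so that 0.373 and 0.297 of the control signal was left (limma, adjusted p = 8.6e-06 and 6.4e-07). The median of an array lay between 7.71 and 7.76 and its lower quartile between 6.14 and 6.19 on the log2 scale. Of the 7 epithelial markers, 5 averaged above the array median, KRT8 and KRT18 among them, whereas CDH1 and CLDN4 did not. The 7 endothelial markers averaged 7.01 to 7.19 and the 6 platelet markers measured 6.97 to 7.09 on every array, with 1 of each above the median. The 6 leukocyte markers measured averaged 7.34 to 7.54, 2 of them above the median, LAPTM5 and CORO1A. With 10% FBS, siLAPTM4B arrays averaged 7.51 to 7.54 for the leukocyte and 9.43 to 9.50 for the epithelial markers, against 7.39 to 7.46 and 9.36 to 9.39 on the siControl arrays. In limma, 1 marker of each list was called there, LAPTM5 (log2 fold change 0.49, adjusted p = 0.0053) and EPCAM (0.51, adjusted p = 0.037), so these averages do not describe each list as a whole. KRT7 stood at -0.11 there (adjusted p = 0.27) and at -0.37 for knockdown without serum (adjusted p = 0.0048). Serum withdrawal changed some markers more, with KRT7 at -1.90 and -1.63 and EPCAM at 0.79 and 1.09 in siLAPTM4B and siControl cells. Under both siRNAs it called these 2 epithelial markers, CORO1A higher, LAPTM5 and CD14 lower, and 0 endothelial or platelet markers. Over all features, withdrawal called 20.7% and 26%. The part of these lists in the members' values was not tested.

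F2R and TFPI were bright on all 12 arrays, above the array median throughout. F3 was below the array median on all 12 arrays, F2RL2 on 9, THBD on 8 and F2RL3 on 2. TFPI2 was below the lower quartile on all 12. The table carries no detection call, so for a dim feature such as TFPI2 a real low level and background cannot be told apart. Levels of different genes are not compared, because each feature has its own probes.

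F2RL2, the receptor PAR3, had the widest range of the 7 measured members over the 12 arrays, 2.12 on the log2 scale, against 0.21 to 0.47 for the other 6. Without serum, the siLAPTM4B arrays read 6.51, 6.60 and 6.64, and the siControl arrays 7.09, 7.19 and 7.07. With 10% FBS, the siLAPTM4B arrays read 7.42, 7.49 and 7.42, and the siControl arrays 8.29, 8.57 and 8.63. No array of any group reached into the range of another, and the groups stood in the order siLAPTM4B 0% FBS, siControl 0% FBS, siLAPTM4B 10% FBS, siControl 10% FBS, lowest first.

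Group means of F2RL2 were 6.59 ± 0.065 and 7.12 ± 0.065 in siLAPTM4B and siControl cells without serum, and 7.45 ± 0.042 and 8.50 ± 0.18 in siLAPTM4B and siControl cells with 10% FBS (SD, n = 3 each). The widest spread was thus in siControl cells with 10% FBS, where replicate 1 was the lowest of the 3. In RNA of a whole culture, fewer cells with a transcript and less of it per cell cannot be told apart.

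**Figure D1:**
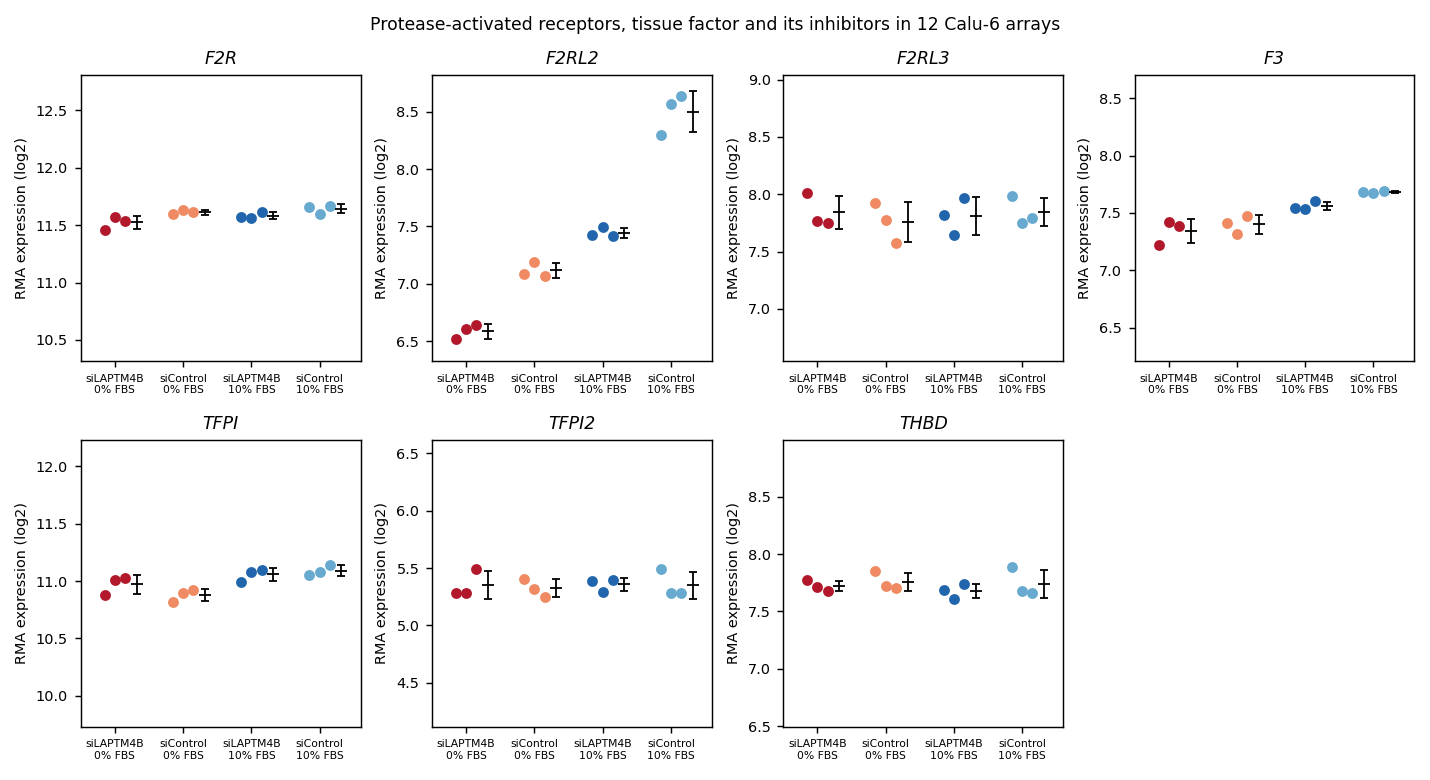
RMA expression (log2) of the 7 measured genes in each array (points), by siRNA and FBS group, with group mean and SD beside the points (n = 3); every panel spans the same height in log2 units. F2RL2 runs between 6.51 and 8.63 in 4 separate steps, while the other 6 genes each stay within 0.47.

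Without serum, on arrays that had not been used to choose F2RL2, its signal was lower in siLAPTM4B than in siControl cells. The set as a whole was chosen with earlier results of these data known. Whether arrays of the same replicate number are paired between media is also not known. The log2 fold change was -0.53 (SE 0.054, 95% interval -0.65 to -0.41), which left 0.693 of the siControl signal, with an adjusted p of 0.0029 over 19460 features in limma. F2RL2 was the 1 of 7 measured members called in this comparison; over all features 2.33% were called, 1.74% lower and 0.591% higher. The 3 against 3 arrays did not overlap, which holds for 11.6% of features in that direction, and the exact two-sided permutation test gave p = 0.1, the smallest that this design allows. The call was lost under 1 of 12 alternatives, the methods' t-test, at an adjusted p of 0.074, and its lowest adjusted p was 0.00017. The fit without dim features leaves F2RL2 out as too dim and is not among the 12. The study names that test for its in vitro experiments in general and names no test for the arrays. It selected array genes at an unadjusted p under 0.01, not at an adjusted p, and lists F2RL2 among those lower without serum.

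With 10% FBS, on the arrays that led to the choice of F2RL2, its siLAPTM4B signal was lower than its siControl signal by a log2 fold change of -1.05 (SE 0.083), a ratio of 0.482. Without serum as compared with 10% FBS, F2RL2 was lower by a log2 fold change of -0.86 (SE 0.054, ratio 0.551) in siLAPTM4B cells and of -1.38 (SE 0.085, ratio 0.384) in siControl cells. Cells with both knockdown and serum withdrawal stood at 0.266 of the siControl signal in 10% FBS, a log2 fold change of -1.91 (SE 0.086). The knockdown difference without serum minus that with 10% FBS came to 0.52 (SE 0.11), with 0.46 to 0.62 over the alternatives, the highest without replicate 1 of siControl 10% FBS. These values share the arrays that chose the gene and carry no test.

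**Figure D2:**
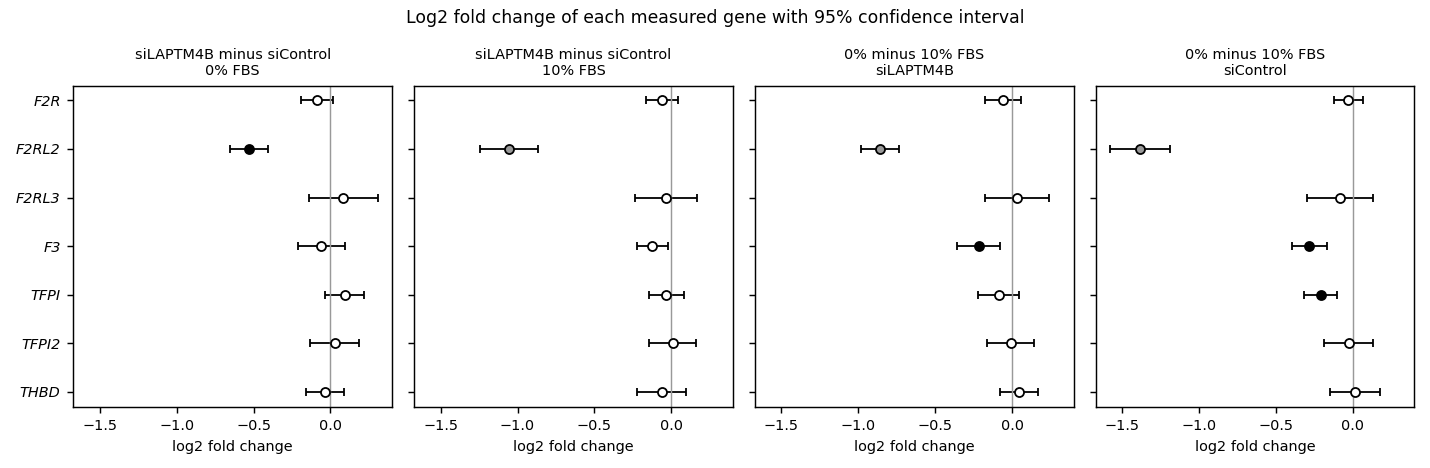
Log2 fold change (x axis) of each measured gene in the 4 comparisons, siLAPTM4B minus siControl in 0% and in 10% FBS and 0% minus 10% FBS in siLAPTM4B and in siControl cells, with 95% confidence intervals; black points passed an adjusted p of 0.05, white points did not, grey points are described without a test. F2RL2 without serum (-0.53), F3 in both withdrawal panels (-0.22 and -0.28) and TFPI in siControl cells (-0.21) are the black points.

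F2R, which encodes PAR1, the main thrombin receptor, stayed within 0.21 on the log2 scale over the 12 arrays. Without serum it read 11.46, 11.57 and 11.54 in siLAPTM4B cells and 11.59, 11.63 and 11.61 in siControl cells. These arrays did not overlap, yet the difference of -0.088 (SE 0.046, 95% interval -0.19 to 0.017) did not pass the test (limma, adjusted p = 0.44). With 10% FBS the siLAPTM4B arrays read 11.57, 11.56 and 11.62 and the siControl arrays 11.66, 11.60 and 11.67, which overlapped, at a log2 fold change of -0.060 (SE 0.046, interval -0.16 to 0.044). Serum withdrawal gave -0.058 (interval -0.17 to 0.058) in siLAPTM4B and -0.030 (interval -0.12 to 0.064) in siControl cells, so that for PAR1 the intervals of all 4 comparisons lie between -0.19 and 0.064.

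F2RL3, which encodes PAR4, the low-affinity thrombin receptor of platelets, ranged over 7.58 to 8.01, with group SDs of 0.12 to 0.17. Its groups overlapped in all 4 comparisons. The log2 fold changes were 0.084 (interval -0.14 to 0.31) for knockdown without serum, -0.033 (-0.24 to 0.17) for knockdown with 10% FBS, 0.033 (-0.18 to 0.24) for withdrawal in siLAPTM4B cells and -0.083 (-0.30 to 0.13) in siControl cells. None passed the test, and these intervals leave room for changes of up to about 0.31 on the log2 scale.

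F3, tissue factor, was lower without serum than with it under both siRNAs, and no knockdown comparison of it passed the test. In 0% FBS its arrays read 7.22, 7.42 and 7.39 in siLAPTM4B and 7.41, 7.32 and 7.47 in siControl cells. In 10% FBS they read 7.55, 7.53 and 7.60 in siLAPTM4B and 7.68, 7.68 and 7.69 in siControl cells. Under each siRNA, the arrays with 0% FBS thus lay below those with 10% FBS. Under withdrawal, 19.7% of all features had lower arrays with no overlap in siLAPTM4B and 21.6% in siControl cells.

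In siControl cells, serum withdrawal lowered F3 by a log2 fold change of -0.28 (SE 0.049, 95% interval -0.40 to -0.17), a ratio of 0.822 (limma, adjusted p = 0.0036). The call held under 12 of 12 alternatives, with adjusted p between 0.0020 and 0.026. The fit without dim features leaves F3 out as too dim and is not among the 12. In siLAPTM4B cells the log2 fold change was -0.22 (SE 0.062, interval -0.36 to -0.078), a ratio of 0.860 (adjusted p = 0.035), and this call held under 4 of 12 alternatives. It was lost over all features of the table (0.083), with an intensity trend and robust prior (0.051), with the methods' t-test (0.12), and when an array was left out: replicate 1 (0.091) or 3 (0.053) of siLAPTM4B 0% FBS, or replicate 1 (0.075), 2 (0.060) or 3 (0.11) of siLAPTM4B 10% FBS.

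Knockdown gave F3 a log2 fold change of -0.059 (SE 0.066, interval -0.21 to 0.092) without serum, where the groups overlapped. With 10% FBS it gave -0.12 (SE 0.044, interval -0.22 to -0.023), where the groups did not overlap, at an unadjusted p of 0.021 and an adjusted p of 0.18 in limma, and 0.11 to 0.39 over the alternatives. F3 was thus the only member besides F2RL2 with groups that did not overlap in that comparison, where 11.6% of all features did not overlap in that direction.

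TFPI, which encodes the main inhibitor of the tissue factor complex, was likewise lower without serum in siControl cells. Its siControl arrays read 10.82, 10.90 and 10.92 in 0% FBS and 11.05, 11.08 and 11.14 in 10% FBS, with no overlap. The log2 fold change was -0.21 (SE 0.047, 95% interval -0.32 to -0.10), a ratio of 0.865 (limma, adjusted p = 0.012), and the call held under 13 of 13 alternatives, with adjusted p between 0.00039 and 0.043.

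In siLAPTM4B cells TFPI read 10.88, 11.01 and 11.03 in 0% FBS and 10.99, 11.08 and 11.10 in 10% FBS. These overlapped, and the difference of -0.086 (SE 0.059, interval -0.22 to 0.047) did not pass the test (limma, adjusted p = 0.38). The withdrawal effect in siLAPTM4B minus that in siControl cells, which equals the knockdown effect without serum minus that with 10% FBS, was 0.12 (SE 0.074, interval -0.036 to 0.28, adjusted p = 0.58), so the withdrawal effect on TFPI was not shown to differ between siRNAs. Knockdown itself gave 0.092 (interval -0.036 to 0.22) without serum and -0.032 (interval -0.15 to 0.083) with 10% FBS.

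TFPI2 and THBD passed the test in no comparison. TFPI2 stayed between 5.25 and 5.49 over the 12 arrays, in the dim range where little can be read from it, and its 4 log2 fold changes lay between -0.027 and 0.027. THBD, thrombomodulin, stayed between 7.61 and 7.88, with log2 fold changes of -0.035 (interval -0.16 to 0.088) and -0.063 (-0.22 to 0.094) for knockdown without and with serum, and of 0.044 (-0.078 to 0.17) and 0.016 (-0.15 to 0.18) for withdrawal in siLAPTM4B and siControl cells. The groups overlapped for both genes in all 4 comparisons.

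Counted over the set, knockdown without serum called 1 of 7 measured members, as given above. In knockdown with 10% FBS, 0 of the 6 members other than F2RL2 were called in limma, at a background of 4.08% of features (1.99% higher and 2.09% lower), and 1 of these 6, F3, had an unadjusted p under 0.05; the methods' t-test also called 0. In serum withdrawal, 1 of 6 was called in siLAPTM4B cells, at a background of 20.7% of features (9.74% higher and 11% lower). In siControl cells 2 of 6 were called, at a background of 26% (13.2% higher and 12.9% lower). The shares of members called under withdrawal are therefore near the background. All calls among members were towards lower signal. In the test of the difference between media, 0 of 6 were called in limma, against 0.262% of features, and 0 of these 6 had an unadjusted p under 0.05.

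The median log2 fold change of the 7 members was -0.035 for knockdown without serum and -0.060 with 10% FBS, against 0.0068 and 0.0043 over all features. For withdrawal it was -0.058 in siLAPTM4B and -0.083 in siControl cells, against -0.0058 and -0.015. F2RL2 is among the 7 and was chosen for its change with 10% FBS.

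F2RL2, F2R and F2RL1 are neighbours on chromosome 5 in the RefSeq gene order, and F2RL2 lies on the minus strand inside the span of IQGAP2, a scaffold protein gene on the plus strand. IQGAP2 moved the other way under serum withdrawal: it was higher by a log2 fold change of 1.29 (SE 0.078, limma, adjusted p = 4.0e-06) in siLAPTM4B and of 1.51 (SE 0.072, adjusted p = 3.5e-06) in siControl cells. Knockdown gave IQGAP2 -0.032 (adjusted p = 0.90) without serum and 0.18 (adjusted p = 0.24) with 10% FBS. IQGAP2 was chosen for its position. Of the adjoining pair, F2RL2 was thus lower and IQGAP2 higher without serum, and F2R next to them passed no test. Further along, withdrawal lowered PDE8B by -0.59 in siLAPTM4B and -0.21 in siControl cells (limma, adjusted p = 0.00019 and 0.0072). ZBED3 was lower in siControl cells, at -0.16 (adjusted p = 0.025). Knockdown with 10% FBS raised PDE8B by 0.48 (adjusted p = 0.0065). SV2C, S100Z, CRHBP and AGGF1 passed no test. Over all features, withdrawal called 20.7% and 26%.

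The 5 genes whose profile over the 12 arrays was most like that of F2RL2 were PAMR1 (Pearson r 0.99), IGSF10 (0.99), the matrix gelatinase MMP2 (0.99), the cytokine TNFSF18 (0.98) and the glycosyltransferase GXYLT2 (0.98). The arrays fall into 4 groups, so these r values describe the order of the groups and carry no p. PAMR1 averaged 7.20 in siLAPTM4B and 7.56 in siControl cells without serum, and 7.80 in siLAPTM4B and 8.68 in siControl cells with 10% FBS. MMP2 averaged 10.71 and 10.92 in siLAPTM4B and siControl cells without serum, and 11.05 and 11.40 with 10% FBS. F2RL2 thus shared its order of groups with these genes, while its step from one group to the next was larger than that of MMP2. IGSF10 and TNFSF18 were dim, with group means of 5.66 to 6.39 and 5.22 to 5.79. Of the 4 of these genes with a RefSeq window, 2 held the AP-1 letters, PAMR1 and GXYLT2.

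**Figure D3:**
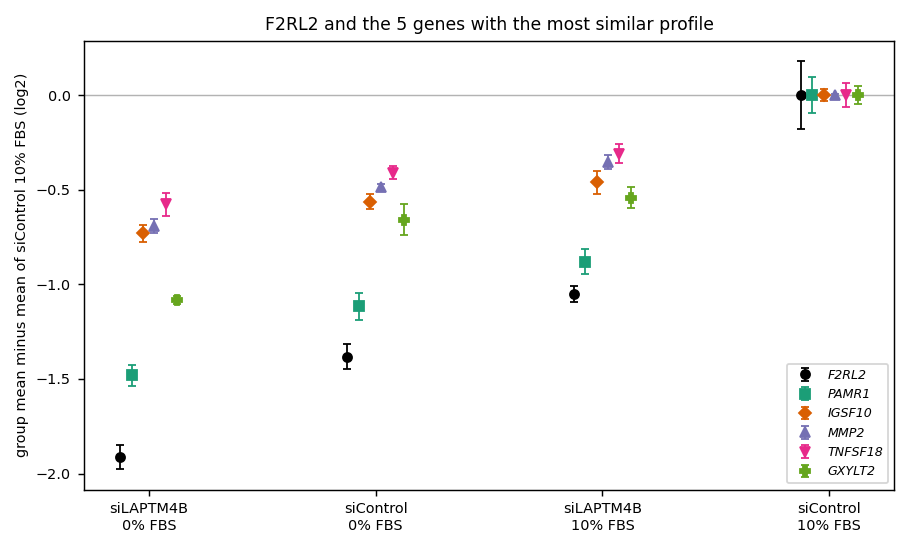
Group mean minus the mean of siControl 10% FBS (log2, y axis) for F2RL2 and the 5 genes with the most similar profile, in the 4 groups (x axis), with the SD of each group (n = 3). All 6 genes are lowest in siLAPTM4B 0% FBS and highest in siControl 10% FBS, and F2RL2 lies lowest there, at -1.91.

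Proteases that can cut the receptors came from a list of 22, 20 of them measured. Over all features, knockdown called 2.33% without serum and 4.08% with 10% FBS. Knockdown called 0 of 20 without serum in limma (unadjusted p under 0.05 for 1 higher and 1 lower) and 1 of 20 with 10% FBS: MMP1, a collagenase that can cut PAR1, was higher by 0.82 (SE 0.094, adjusted p = 0.0032). Its log2 signal averaged 8.48 ± 0.20 in siLAPTM4B and 7.66 ± 0.080 in siControl cells with 10% FBS (SD, n = 3). Withdrawal raised MMP1 by 0.69 (SE 0.089) in siLAPTM4B and by 1.32 (SE 0.055) in siControl cells. The trypsin gene PRSS3 fell by 0.22 and 0.18 in these comparisons, on calls that each held in 2 of 6 fits with an array left out. In all, 1 rose and 1 fell under withdrawal in siLAPTM4B cells, and 2 rose and 2 fell in siControl cells, both shares at or below the 20.7% and 26% of all features. The list medians were 0.019 and -0.0057 for knockdown without and with serum and 0.024 and 0.0018 for withdrawal in siLAPTM4B and siControl cells, all near those of all features.

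Among 17 coagulation factors and their maturation proteins, knockdown called 1 lower without serum and 0 with 10% FBS (limma, unadjusted p under 0.05 for 0 there too). Over all features, 2.33% and 4.08% were called in these comparisons. The gene called was F13A1, the factor that crosslinks fibrin, at -0.31 (SE 0.057, adjusted p = 0.030), a call lost whichever of the 6 arrays was left out. Serum withdrawal raised F13A1 by 0.93 (SE 0.080) in siLAPTM4B and by 1.14 (SE 0.055) in siControl cells. Of the 17, it called 1 higher and 2 lower in siLAPTM4B and 1 higher and 1 lower in siControl cells. Both shares were below the 20.7% and 26% of all features called there. LMAN1, the cargo receptor for factors V and VIII, fell by 0.22 in siLAPTM4B cells, a call that held in 2 of 6 fits with an array left out, and by 0.23 in siControl cells, where it held in 6. GGCX, the vitamin K-dependent carboxylase, fell by 0.21 in siLAPTM4B cells, a call that held in 4 of 6 fits with an array left out. The list medians were 0.021 and 0.020 for knockdown and -0.011 and -0.025 for withdrawal.

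Among 12 anticoagulant proteins and protease inhibitors, knockdown called 0 without serum in limma (unadjusted p under 0.05 for 1 higher and 2 lower) and 1 in each direction with 10% FBS. Over all features, 2.33% and 4.08% were called in these comparisons. SERPINE2, protease nexin 1, a thrombin inhibitor at the cell surface, rose by 0.42 (SE 0.044, adjusted p = 0.0024), with means of 11.85 ± 0.027 in siLAPTM4B and 11.43 ± 0.027 in siControl cells. PROCR, the endothelial protein C receptor that works beside thrombomodulin, fell by 0.30 (SE 0.056, adjusted p = 0.024), with a call that held in 1 of 6 fits with an array left out. Withdrawal lowered PROCR by a log2 fold change of -0.41 (SE 0.072) in siLAPTM4B and of -0.54 (SE 0.044) in siControl cells. In siLAPTM4B cells this call held under 12 of 13 alternatives and was lost with the methods' t-test (adjusted p = 0.059), and in siControl cells it held under 13 of 13. Over the list, withdrawal called 0 higher and 2 lower in siLAPTM4B and 4 higher and 1 lower in siControl cells, against 20.7% and 26% of all features. SERPINE2 was among those higher in siControl cells, by 0.35 (SE 0.039). The list medians were -0.027 and 0.016 for knockdown and 0.0076 and 0.038 for withdrawal.

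Downstream of the receptors, 25 G protein chains and effectors had calls under knockdown near the background of 2.33% and 4.08% of features: 0 without serum in limma (unadjusted p under 0.05 for 3 higher and 2 lower) and 1 with 10% FBS, the calcium channel gene ITPR2, at 0.30 (SE 0.047, adjusted p = 0.014), which held in 4 of 6 fits with an array left out. Withdrawal called 4 higher and 5 lower in siLAPTM4B cells, and 4 higher and 3 lower in siControl cells, against 20.7% and 26% of all features. PLCB4, a phospholipase activated by Gq, rose by 0.93 (SE 0.069) and 0.96 (SE 0.082), and PRKCA, a protein kinase C, fell by 0.33 and 0.32 in siLAPTM4B and siControl cells. Medians were -0.0035 and 0.011 for knockdown and 0.055 and 0.055 for withdrawal.

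Of 13 measured genes of 14 for desensitization and uptake of receptors, knockdown without serum lowered 3, RGS4, RGS16 and the receptor kinase GRK3, where 1.74% of all features were called lower. This list too was chosen with earlier results of these data known, so that count is a description and no test of the list. GRK3 had a log2 fold change of -0.23 (SE 0.047, limma, adjusted p = 0.045). RGS4, which switches off Gq and Gi signals, had a log2 fold change of -0.53 (SE 0.054, limma, adjusted p = 0.0028), and RGS16 of -0.32 (SE 0.055, adjusted p = 0.023), which held in 1 of 6 fits with an array left out. With 10% FBS 0 were called (limma, unadjusted p under 0.05 for 2 higher and 1 lower), against 4.08% of all features. RGS4 there stood at -0.026 (adjusted p = 0.91). The difference for RGS4 between media was -0.51 (SE 0.10, adjusted p = 0.063). Withdrawal raised RGS4 by 2.88 (SE 0.067) in siLAPTM4B and 3.39 (SE 0.069) in siControl cells. It called 3 higher and 4 lower in siLAPTM4B cells and 4 higher and 5 lower in siControl cells, against those 20.7% and 26% of all features, with CAV1, the caveolin scaffold, among the lower, at -0.31 and -0.30. Medians were -0.043 and -0.026 for knockdown and 0.029 and 0.059 for withdrawal.

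Of 18 measured genes of 20 known to be induced by thrombin or receptor agonists in culture, knockdown without serum called 4 lower and 0 higher, PTGS2, EGR1, FOS and THBS1, where 1.74% of all features were called lower. The list was chosen with earlier results of these data known, so its counts beside those shares are a description and no test of the list. PTGS2, cyclooxygenase 2, had a log2 fold change of -1.21 (SE 0.088, limma, adjusted p = 0.00086), and EGR1, an immediate early transcription factor, of -0.67 (SE 0.066, adjusted p = 0.0026). With 10% FBS the calls were split, 3 higher and 4 lower, against 1.99% and 2.09% of all features: the chemokines CXCL8 (0.51, SE 0.050, adjusted p = 0.0018) and CXCL1 (0.30, SE 0.061, adjusted p = 0.032) rose, while PTGS2 (-0.70, SE 0.048) and THBS1, thrombospondin 1 (-0.57, SE 0.042), fell. The CXCL1 call held in 1 of 6 fits with an array left out. Withdrawal called 7 higher and 5 lower in siLAPTM4B and 8 higher and 5 lower in siControl cells, against 20.7% and 26% of all features called in either direction, with VEGFA at 1.47 and 1.22, FOS at 0.79 and 1.70, TGFB2 at -1.47 and -1.39 and PTGS2 at -1.87 and -1.36. Medians were -0.031 and 0.0047 for knockdown and 0.038 and 0.052 for withdrawal. Several of these genes respond to many stimuli besides thrombin. The methods' t-test, among the alternatives, ended the calls of RGS4, PTGS2 and EGR1 for knockdown without serum (adjusted p = 0.074, 0.072 and 0.083) and of MMP1 for knockdown with 10% FBS (0.090). That test, and the fit over all features of the table, also ended those of RGS16 and F13A1 without serum and of PROCR, CXCL1 and ITPR2 with 10% FBS. GRK3, FOS and THBS1 were not refitted under the alternatives for knockdown without serum. At its unadjusted threshold of 0.01 the study lists RGS4, RGS16, PTGS2, EGR1, FOS, THBS1 and F13A1 as lower without serum. It also lists genes of these lists that were not called here, such as MMP1 and CXCL1 as higher and MMP13 as lower.

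**Figure D4:**
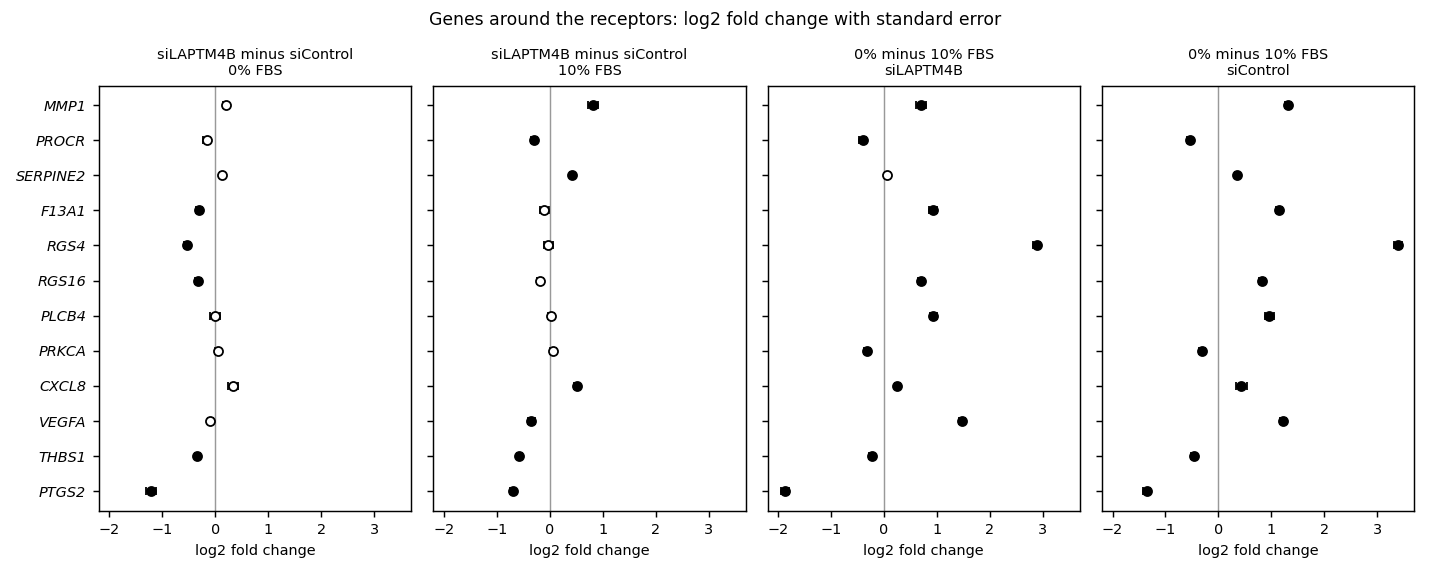
Log2 fold change (x axis) with standard error of 12 genes that act around the receptors, in the 4 comparisons siLAPTM4B minus siControl in 0% and in 10% FBS and 0% minus 10% FBS in siLAPTM4B and in siControl cells; black points passed an adjusted p of 0.05 and white points did not. RGS4 is higher without serum by 2.88 and 3.39, and PTGS2 is lower in all 4 panels.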

How the data were processed

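RNA of the 12 Calu-6 cultures had been hybridised to Affymetrix Human Gene 1.0 ST arrays. The authors deposited one log2 value per feature and array, after Robust Multichip Array normalization (RMA) in BRB-ArrayTools. RMA corrects background, sets all arrays to one distribution and summarises probes per feature; build and annotation version are not given in the sources used here. Of 33252 features, 19460 had exactly 1 gene symbol in the platform annotation and were tested. Each of the 7 measured members and LAPTM4B had 1 such feature; for other genes the one with the highest mean was taken. RMA sets differences relative to all genes, and a dim feature's fold change is understated by background.

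Groups were compared by limma 3.58.1 in R 4.3.3 on the 6 arrays of a comparison, and the difference between media on all 12, with Benjamini-Hochberg adjustment over the 19460 features and an adjusted p under 0.05 called. The script was tested on simulated data. No sample was dropped or imputed, and precision is limited by 3 arrays per group. The members, the 6 related lists and the 4 marker lists were chosen with earlier results of these data known. Named besides the members were the targeted gene, up to 2 called genes per direction, list and comparison, and the 5 genes most correlated with F2RL2. IQGAP2 and the other neighbours of F2RL2 were added for their position. GRK3 and a few others were added because a count was small, after their values were seen.

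Deviations of same-numbered arrays correlated above 0.1 at every number between siControl media (0.366, 0.13 and 0.2). The same held between siLAPTM4B 0% FBS and siControl 10% FBS (0.483, 0.177 and 0.345), whose difference carries no test. Such correlations do not settle whether the numbers pair the samples. The main tests leave the numbers out, and the replicate block puts them in. Alternatives were all features, no dim features, an intensity trend with robust prior, Student's t-test (called the methods' t-test, though the study names it for in vitro experiments in general and no test for the arrays), one fit to all arrays, a replicate block, the mean over a gene's features and each array left out. All were called at an adjusted p under 0.05, whereas the study selected array genes at an unadjusted p under 0.01.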

Additional observations from a re-analysis of the deposited data

Results flagged for a closer look

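5 genes were marked because their knockdown effect differed between media in limma over all 12 arrays (knockdown without serum minus knockdown with 10% FBS), and no measured member tested was among them. FOS had a difference of -0.90 (SE 0.13, adjusted p = 0.0096), with a knockdown effect of -0.62 without serum and 0.28 with 10% FBS, and it was lost only when all features of the table were tested. MMP1 had a difference of -0.63 (SE 0.11, adjusted p = 0.048), with 0.20 and 0.82, and was not called with the replicate number as a block (adjusted p = 0.054). EGR1 had one of -0.48 (SE 0.086, adjusted p = 0.042), with -0.67 and -0.18. SERPINE2 had one of -0.29 (SE 0.052, adjusted p = 0.042), with 0.13 and 0.42. The targeted LAPTM4B itself had one of 0.33 (SE 0.056, adjusted p = 0.035), with -1.42 and -1.75. With an array left out in turn, the call of FOS held in 12 of 12 fits, that of MMP1 in 2, that of EGR1 in 1, and those of SERPINE2 and LAPTM4B in 0.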

How the results depend on the processing

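Of 411 tested member values under the alternatives, 369 kept direction and side of the threshold, 9 lost a call, and 33 turned sign, all with an array left out and none called. For siLAPTM4B 0% FBS against siControl 0% FBS, 454 features were called: 134 over all features of the table, 808 without dim features, 1126 with an intensity trend and robust prior, 27 with the methods' t-test, 687 in one fit to all arrays and 118 to 290 with an array left out. With 10% FBS, 793 were called: 279, 1207, 1686, 177 and 1370 in that order, and 228 to 482 with an array left out. For the difference between media, 51 were called: 17 over all features, 111 without dim features, 163 with the trend and 19 to 51 with an array left out. The dim filter drops F2RL2, F3, TFPI2 and THBD, so tested members called came to 0 against 1 for knockdown without serum, 0 against 1 for withdrawal in siLAPTM4B and 1 against 2 in siControl cells. The methods' t-test left 0 for knockdown without serum. For withdrawal in siLAPTM4B cells the count was 0 over all features, with the trend and with the t-test, and 0 to 1 with an array left out. With 10% FBS and for the difference between media it was 0 in every fit. Paired by a replicate block, the difference called 84 features; the block ended the call of MMP1 there (adjusted p = 0.054), changed no call of a tested member and gave 656, 833, 4014 and 5608 features for knockdown without and with serum and withdrawal in siLAPTM4B and siControl cells. Between siLAPTM4B and siControl the numbers had correlations of 0.387, 0.0694 and 0.184 without serum and 0.368, 0.153 and -0.0795 with 10% FBS. Between siLAPTM4B media they had 0.316, 0.131 and -0.167. None of these comparisons was above 0.1 at every number, and whether the numbers pair the samples is not known. Lowest and highest log2 fold changes of values that turned sign with an array left out were, for F2RL3, -0.0078 and 0.17, -0.11 and 0.051, -0.051 and 0.11, and -0.16 and 0.0083 in the 4 comparisons in that order; for TFPI2, -0.043 and 0.068, -0.026 and 0.077, -0.078 and 0.027, and -0.068 and 0.042, and -0.051 and 0.060 for the difference; for THBD, -0.063 and 0.011 and -0.10 and 0.0092 for knockdown, -0.030 and 0.088 for withdrawal in siControl cells and -0.044 and 0.074 for the difference; for F3, -0.10 and 0.0025 for knockdown without serum; for F2R, -0.053 and 0.0036 for the difference. Among the other named genes, 709 of 846 values kept their side and 137 lost the call. The causes were not tested. 3 arrays per group and dim signal for F2RL2, F3, TFPI2 and THBD limit what can be read.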
